A study of Parasteatoda tepidariorum with 12 samples.

Results

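The genes described here are the translation factors and tRNA ligases of the common house spider *Parasteatoda tepidariorum*, measured in early embryos. Gene models were taken as members when their deposited description named a eukaryotic translation initiation factor, a translation elongation factor, a peptide chain release factor or a tRNA ligase (tRNA synthetase). This rule uses words only and no measured value, and it found 123 of 27990 gene models. RNA-seq was performed on whole embryos of stages 2, 3 and early 5, collected 11, 20 and 31 h after egg laying. At each stage, untreated embryos were compared with *fuchi* pRNAi embryos. In parental RNAi (pRNAi) the mother is injected with double-stranded RNA and the knockdown is passed to her eggs, and *fuchi* (g26874) encodes a lineage-specific GATA-like transcription factor. The untreated embryos came from an egg sac laid before the injections, and the *fuchi* pRNAi embryos came from an egg sac that the same mother produced 18 or 19 days after the first of 4 injections of *fuchi* double-stranded RNA. Each library pooled 50 to 100 embryos. There were 12 libraries in 6 groups of 2, and replicates 1 and 2 came from 2 different females that each gave 1 library to every group. Since both treatments differ in injection and in the egg sac used, knockdown, injection and egg sac cannot be told apart. Whole embryos are a mixture of cells, so fewer cells of a type and less RNA per cell cannot be told apart either.

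In initiation, eIF2 brings the initiator tRNA to the small ribosomal subunit, eIF3 is the many-subunit scaffold on that subunit, and the eIF4F group binds the mRNA cap through eIF4E. eIF5 triggers GTP hydrolysis by eIF2 once the start codon is found. In elongation, eEF1A delivers charged tRNAs and eEF2 moves the ribosome along the mRNA, and release factors end the chain at a stop codon. tRNA ligases attach each amino acid to its tRNA, and animals have cytosolic and mitochondrial forms. In animal embryos, early protein synthesis depends on ribosomes and mRNAs laid down in the egg before transcripts of the embryo's own genes accumulate.

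Libraries held 5662766 to 8857990 counts on gene models, and 14639 to 16929 models had at least 1 count. Values below are CPM (a count divided by the scaled library total and expressed on a common total for all libraries, with TMM factors over the 12 libraries), given for replicate 1 and then replicate 2. The TMM factors moved with the stage. Stage 2 libraries had factors of 1.122 to 1.213, stage 3 libraries 0.9678 to 1.133, and early stage 5 libraries 0.7887 to 0.8594. The *fuchi* transcript checked the labels. At stage 2, *fuchi* was at 52.8 and 38.9 CPM in untreated and 13.3 and 5.86 CPM after *fuchi* pRNAi. At early stage 5 it was at 276 and 308 CPM in untreated and 123 and 110 CPM after *fuchi* pRNAi. Over the 3 stages, *fuchi* pRNAi embryos held 15.1% to 44.5% of the level of the untreated embryos of the same female. The groups did not overlap at any stage.

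Of the 123 members, 118 reached 1 CPM in at least 1 library and were tested, and 5 did not. One of these 5, an eIF1A X-chromosomal-like model (g12547), had 0 counts in every library. The models carry 105 different NCBI entry labels, where a label that names 2 entries was counted as 1. In 14 cases 2 or more models carry the same label, 32 models in all. Among them are 5 models of the cytoplasmic cysteine ligase and 3 of a glycine ligase. The cytosolic asparagine ligase models g11286 and g19159 share 1 entry but not the whole label, and are not among these cases. Such models may be pieces of 1 gene, and reads between them can be split. One member (g11255) overlaps a neighbouring model on the same strand. Both eEF1A models (g27264 and g1688) have separate entries but could share reads, so the split between them is uncertain.

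The share of all counts that fell on members rose with stage. In untreated embryos it was 1.39% and 1.29% for stage 2, 2.22% and 2.41% for stage 3, and 4.0% and 4.44% for early stage 5. After *fuchi* pRNAi it was 1.32% and 1.29%, then 2.21% and 1.93%, then 4.25% and 4.08%. The stages did not overlap, whereas the treatments did at stage 2 and early stage 5. At stage 3 both *fuchi* pRNAi libraries were below both untreated ones, by very little in replicate 1. Cytosolic elongation factors took the most counts, from 0.421% and 0.322% at untreated stage 2 to 1.71% and 1.97% at early stage 5. eIF3 went from 0.142% and 0.124% to 0.636% and 0.758%. Cytosolic tRNA ligases went from 0.249% and 0.241% to 0.368% and 0.381%, and mitochondrial ligases held 0.0431% and 0.0446% at the start and 0.0411% and 0.0407% at the end. These shares use library totals and no TMM factor.

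**Figure D1:**
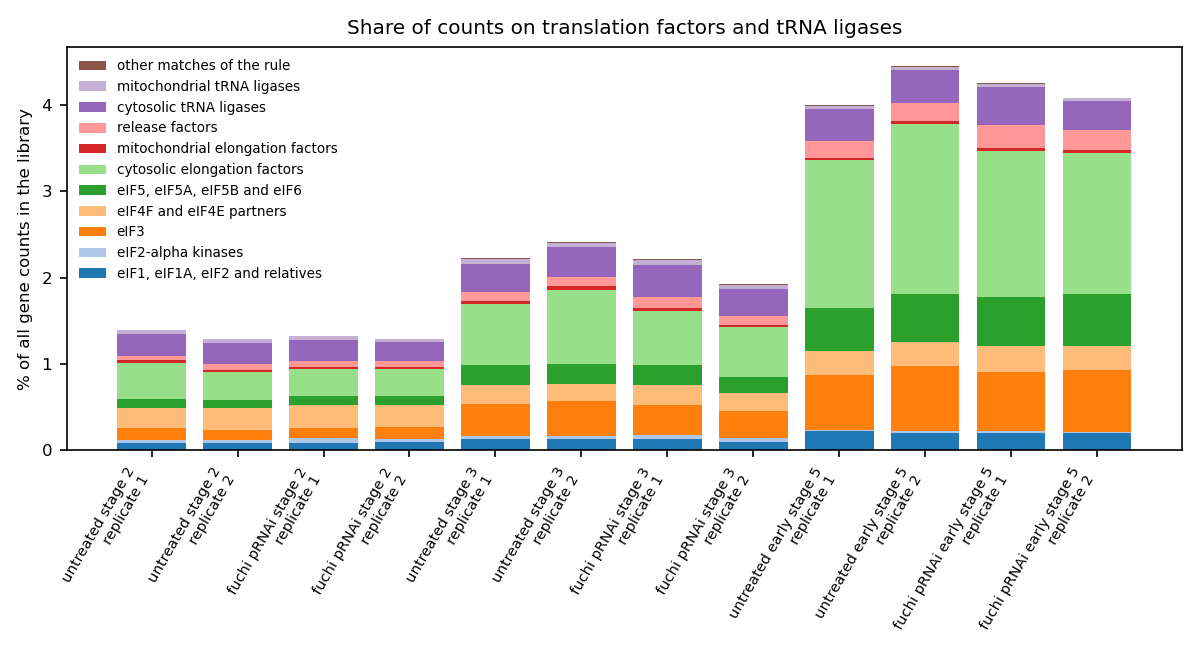
Share of all gene counts (% of the library total, y axis) on translation factors and tRNA ligases in each of the 12 libraries (x axis), stacked by role. The whole bar goes from 1.29% to 1.39% at stage 2 to 4.0% to 4.44% at early stage 5, with cytosolic elongation factors and eIF3 making up most of the gain.

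Levels were compared between genes on the deposited RPKM values, which are divided by model length. The mean over 12 libraries was highest for eEF1A g27264 at 1682 RPKM (355.5 to 3706), the 20th highest of all gene models. eIF5A-1 (g18447) followed at 1450.0 RPKM (370.0 to 2944), then eEF1A g1688 at 1121 RPKM, eEF2 (g11106) at 751 RPKM and eEF1-beta (g14286) at 471 RPKM. eEF1A g27264 was above eEF1A g1688 in 12 of 12 libraries and above eIF5A-1 in 7, and eIF5A-1 was above g1688 in 11. The order of g27264 and eIF5A-1 thus varied between libraries. The most abundant tRNA ligase was that for lysine (g19560) at 207 RPKM, followed by aspartate (g23609) at 105 RPKM. Mitochondrial proteins were lower, with elongation factor Tu-like (g3496) at 85.2 RPKM, the mitochondrial methionine ligase (g11101) at 40.9 RPKM and the mitochondrial arginine ligase (g19952) at 24.1 RPKM.

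Changes between stages in untreated embryos were tested with edgeR over all 14498 models that passed the filter, and a change was called at an adjusted p under 0.01. From stage 2 to early stage 5, 59 of 118 members rose and 4 fell, against 22.0% of all models that rose and 22.5% that fell. The median member log2 fold change was 1.16 (1.13 with models absent at 1 stage set to their bound) and that of all models was 0. With library totals in place of TMM, 46 members rose and 11 fell, and with limma on the deposited RPKM, 46 rose and 15 fell. The all-model median then moved to -0.48 with totals and to -0.41 with limma on RPKM. Members were 1.15 and 0.94 above it, against 1.16 with TMM. Library totals shift all models by about the same amount, so that the gap with totals could hardly differ from that with TMM. No called member turned direction under these scalings.

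The 2 steps differed in how many members passed. From stage 2 to stage 3, 49 members rose and 6 fell (41.5% and 5.08% of those tested), where 17.2% of all models rose and 15.7% fell. The median was 0.85 for members and 0.10 for all models. On the deposited RPKM, 34 rose and 12 fell. From stage 3 to early stage 5, 28 members rose and 3 fell, where 7.70% of all models rose and 10.6% fell, with medians of 0.61 and -0.05. With library totals the second step had 13 rises and 3 falls, and on the deposited RPKM 14 and 3. Over both steps, 22 members rose at each, 27 rose at the first only by this threshold, 5 at the second only, 5 fell at the first step only, 3 fell at the second only, and 1, a cytosolic tryptophan ligase, fell and then rose. Neither step was called for 55 members. Counts of single steps depended on each library. The 55 calls of the first step became 32 without untreated stage 2 replicate 1, 27 without untreated stage 2 replicate 2 and 27 without untreated stage 3 replicate 2. The 31 calls of the second step became 12 or 16 without stage 3 replicate 1 or 2 and 14 or 12 without early stage 5 replicate 1 or 2. The 63 calls over the whole period became 50 to 55. All p-values rest on 2 females.

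**Figure D2:**
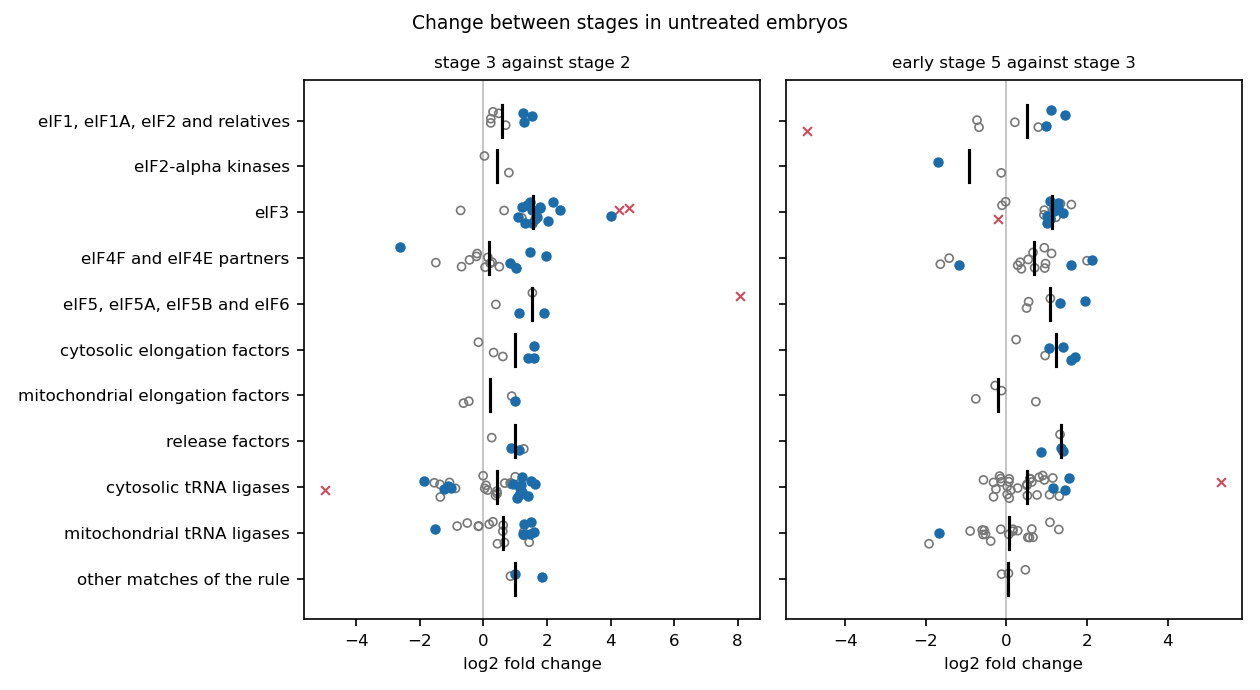
log2 fold change (x axis) of each tested member between stages in untreated embryos, by role (y axis). Filled circles passed the edgeR threshold, open circles did not, red crosses are models with 3 or fewer counts in 1 of the groups compared, and black bars are role medians. eIF3 lies to the right of 0 as a group (medians 1.58 and 1.12), whereas ligases spread to both sides in the left panel.

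eIF3 was the largest initiation group, and 18 of its 20 tested models were higher at early stage 5 than at stage 2, none lower. Over the same period 22.0% of all models were higher and 22.5% lower, and these shares apply to each role below. The median log2 fold change was 2.82, or 2.76 with absent models at their bound. At the first step 16 of 20 rose (median 1.58) and at the second 11 of 20 (median 1.12). eIF3A-like (g7673), the large scaffold subunit, was at 177 and 115 CPM at stage 2, 735 and 828 CPM at stage 3 and then 1217 and 1789 CPM at early stage 5. The 3 stages did not overlap, which for stage 2 against each later stage was a condition for naming the model. It rose by 2.42 ± 0.26 on the log2 scale (SE, n = 2 per group) at the first step (edgeR adjusted p = 1.43e-05) and was 10.3-fold higher at the end than at the start (edgeR adjusted p = 5.63e-07).

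eIF3I-like (g2274; Ptep_1.0 scaffold 377, 465873 to 466989, plus strand) had the steepest rise of the named eIF3 models. It was at 18.3 and 12.5 CPM at stage 2, 171 and 333 CPM at stage 3 and then 541 and 999.6 CPM at early stage 5. The replicates lay far apart within stage 3 and early stage 5. The stages did not overlap, which for stages 2 and 3 was a condition for naming the model. Its log2 fold change over the whole period was 5.63 ± 0.52 (edgeR adjusted p = 1.65e-06) and 4.96 with limma on log2(RPKM + 1). The core subunit eIF3C (g15050) went from 85.6 and 88.1 CPM to 253 and 344 CPM and 676 and 785 CPM, a log2 change of 3.07 ± 0.24 (edgeR adjusted p = 3.86e-07). eIF3M-like (g16709) went from 51.7 and 40.7 CPM through 175 and 248 CPM to 378 and 425 CPM. eIF3H (g24002) went from 70.4 and 41.9 CPM through 214 and 241 CPM to 519.9 and 435 CPM. Both ended with log2 changes near 3, at 3.12 ± 0.26 for eIF3M-like and 3.09 ± 0.28 for eIF3H. eIF3G-like (g12741) followed with 75.8 and 89.2 CPM, then 286 and 281 CPM, then 654 and 542 CPM (2.86 ± 0.26, edgeR adjusted p = 1.38e-06). eIF3J (g1839), a loosely bound subunit and the one with the highest mean RPKM of the group (452), rose less, from 168 and 201 CPM to 1117 and 791 CPM (log2 change 2.37 ± 0.25, edgeR adjusted p = 4.85e-06).

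Among eIF1, eIF1A, eIF2 and their relatives, 5 of 8 tested models were higher at early stage 5 than at stage 2 and none was lower (median 1.25). The share that was higher was 62.5%, against 22.0% of all models. eIF1 (g1280), which helps the ribosome to select the start codon, was at 285 and 301 CPM at stage 2, 411 and 404 CPM at stage 3 and then 999.8 and 761 CPM at early stage 5. Its first step was not called (0.48 ± 0.23), and it was 3.01-fold higher over the period (1.59 ± 0.24, edgeR adjusted p = 9.45e-05). The alpha subunit of eIF2 (eIF2 subunit 1-like, g13520) went from 108 and 106 CPM through 308 and 213 CPM to 571 and 459 CPM, a log2 change of 2.27 ± 0.26 over the whole period (edgeR adjusted p = 1.03e-05). The early and late libraries of both genes did not overlap.

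The kinases that phosphorylate eIF2-alpha, and so lower initiation in stressed cells, followed another course. eIF2-alpha kinase 3 (g10662; Ptep_1.0 scaffold 1199, 107436 to 169031, plus strand), known as PERK in mammals, was at 247 and 229 CPM at stage 2, 260 and 225 CPM at stage 3 and then 81.1 and 66.8 CPM at early stage 5. It was 3.28-fold lower at early stage 5 than at stage 3 (log2 change -1.71 ± 0.24, edgeR adjusted p = 0.000171), and after *fuchi* pRNAi it went from 311 and 411 CPM to 106 and 84.0 CPM. eIF2-alpha kinase 1-like (g26732) was at 61.8 and 45.1 CPM, then 82.2 and 105 CPM, then 75.7 and 95.2 CPM. Its stages 3 and 5 overlapped and none of its changes was called.

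The eIF4 group, which holds the cap-binding proteins and the proteins that bind eIF4E, was mixed. Of 16 tested models, 6 were higher and 1 lower at early stage 5 than at stage 2. These were 37.5% and 6.25%, against 22.0% and 22.5% of all models. The share that rose was 25.0% at the first step, against 17.2% of all models, and 12.5% at the second, against 7.70%. At the first step the median was 0.18, which turned to -0.04 with library totals. An eIF4E-like model (g6297), a cap-binding protein, went from 53.7 and 62.2 CPM to 249 and 207 CPM and then 506 and 371 CPM (log2 change over the period 2.92 ± 0.30, edgeR adjusted p = 4.39e-06, and 2.34 on log2(RPKM + 1)). eIF4E type 2 (g1328), related to the cap-binding repressor 4EHP of mammals and flies, went from 62.3 and 88.2 CPM to 246 and 169 CPM and then 364 and 239 CPM (2.00 ± 0.28, edgeR adjusted p = 5.53e-05).

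The eIF4E transporter 4E-T (g18867; Ptep_1.0 scaffold 3009, 41426 to 74468, plus strand) was the fall with the smallest p at the first step. In mammals this protein binds eIF4E and is part of mRNA storage and repression bodies. It was at 851 and 736 CPM at stage 2 and at 119.7 and 134 CPM at stage 3, with 153 and 168 CPM at early stage 5. The stage 2 libraries lay far above all others. In untreated embryos, lack of overlap of stage 2 with each later stage was a condition for naming the model. The fall to stage 3 was 6.24-fold (log2 change -2.64 ± 0.21, edgeR adjusted p = 1.43e-06), and the later change of 0.34 was not called. *fuchi* pRNAi embryos had 873 and 824 CPM, then 181 and 204 CPM, then 246 and 220.1 CPM.

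The eIF4E-binding protein 4E-BP1 (g27051), which blocks eIF4E from joining eIF4G, was at 154 and 199 CPM at stage 2, 126 and 92.9 CPM at stage 3 and then 543 and 406 CPM at early stage 5. Its drop at the first step was not called (-0.69), and its rise at the second step was 4.34-fold (log2 change 2.12 ± 0.32, edgeR adjusted p = 0.000296). eIF4 gamma 2-like (g11300), which in mammals lacks the eIF4E-binding region of eIF4G, was likewise flat at first, with 238 and 206 CPM and then 256 and 204 CPM, and then at 719 and 663 CPM. That rise was 1.59 ± 0.25 on the log2 scale (edgeR adjusted p = 0.00048). Mextli (g8534), an eIF4E-binding protein described in *Drosophila*, was at 153 and 179.9 CPM, then 162 and 239 CPM, then 79.4 and 98.1 CPM. Its fall at the second step was called (-1.17 ± 0.27, edgeR adjusted p = 0.00571), but not without stage 3 replicate 2 (-0.87, edgeR adjusted p = 0.062), early stage 5 replicate 1 (-1.02, edgeR adjusted p = 0.056) or early stage 5 replicate 2 (-1.32, edgeR adjusted p = 0.0192).

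All 5 tested models of eIF5, eIF5A, eIF5B and eIF6 were higher at early stage 5 than at stage 2 (median 3.06). eIF5A-1 (g18447; Ptep_1.0 scaffold 2851, 72676 to 82000, plus strand), which helps ribosomes past residues that join slowly, was at 392 and 433 CPM at stage 2, 1421 and 1704 CPM at stage 3 and then 3732 and 4077 CPM at early stage 5. It was 9.46-fold higher at the end than at the start (log2 change 3.24 ± 0.23, edgeR adjusted p = 2.2e-07). eIF5 (g7674) was at 266 and 215 CPM, then 615 and 424 CPM, then 2073 and 1949.6 CPM, and was 8.36-fold higher over the period (3.06 ± 0.27, edgeR adjusted p = 9.53e-07). The eIF5 and eIF3A-like models are neighbours on the same strand, 7210 bases apart. eIF6 keeps large ribosomal subunits from joining small ones too early. Of its 2 models, g12787 had 0 counts in both untreated stage 2 libraries, 62 counts at stage 3 and 116 at early stage 5. Against a floor of 3 counts over the stage 2 group, g12787 was at least 26.9-fold higher at stage 3 and at least 57.3-fold higher at early stage 5. Summed with the other eIF6 model under the same entry label, the log2 changes were 2.31 and 3.09.

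Among 6 tested models grouped by description as cytosolic elongation factors, 5 were higher at early stage 5 than at stage 2 and none was lower (median 2.05). The calls of eEF1-gamma (g16084) and of eEF1 epsilon-1 (g10578), a synthetase-complex protein, depended on single libraries. Where these calls were lost, the log2 changes were 0.61 to 0.84 and 0.89 to 1.09. eEF1A (g27264; Ptep_1.0 scaffold 207, 206458 to 218654, minus strand) was at 1127 and 699.9 CPM at stage 2, 2393 and 3091 CPM at stage 3 and then 8815 and 9015 CPM at early stage 5. It rose at each step, by 1.59 ± 0.25 (edgeR adjusted p = 0.00023) and 1.70 ± 0.25 (edgeR adjusted p = 0.000268), or 9.76-fold over both. The other eEF1A model (g1688) went from 693 and 519 CPM through 1542 and 2113 CPM to 5224 and 5889.5 CPM, 9.18-fold over the period (edgeR adjusted p = 3.91e-07). eEF2 (g11106) was at 1034 and 688 CPM, then 1778 and 2758 CPM, then 5431 and 6648 CPM, a log2 change of 2.81 ± 0.28 (edgeR adjusted p = 3.51e-06). The exchange factor subunit eEF1-beta (g14286) was at 313 and 374 CPM at stage 2, 575 and 476 CPM at stage 3 and then 785 and 455 CPM at early stage 5, and none of its changes was called.

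All 4 tested release factor models were higher at early stage 5 than at stage 2 (median 2.12). The stop codon reader eRF1 (g11452) was at 212 and 288 CPM, then 543 and 548 CPM, then 940.5 and 1029.8 CPM, a log2 change of 1.98 ± 0.22 (edgeR adjusted p = 7.23e-06). Its GTPase partner eRF3 (ERF3A-like, g25840) was at 286 and 280.3 CPM, then 477 and 551 CPM, then 1358 and 1367 CPM, and was 4.81-fold higher over the period (edgeR adjusted p = 1.86e-06). No library of a later stage overlapped an earlier one for either gene.

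**Figure D3:**
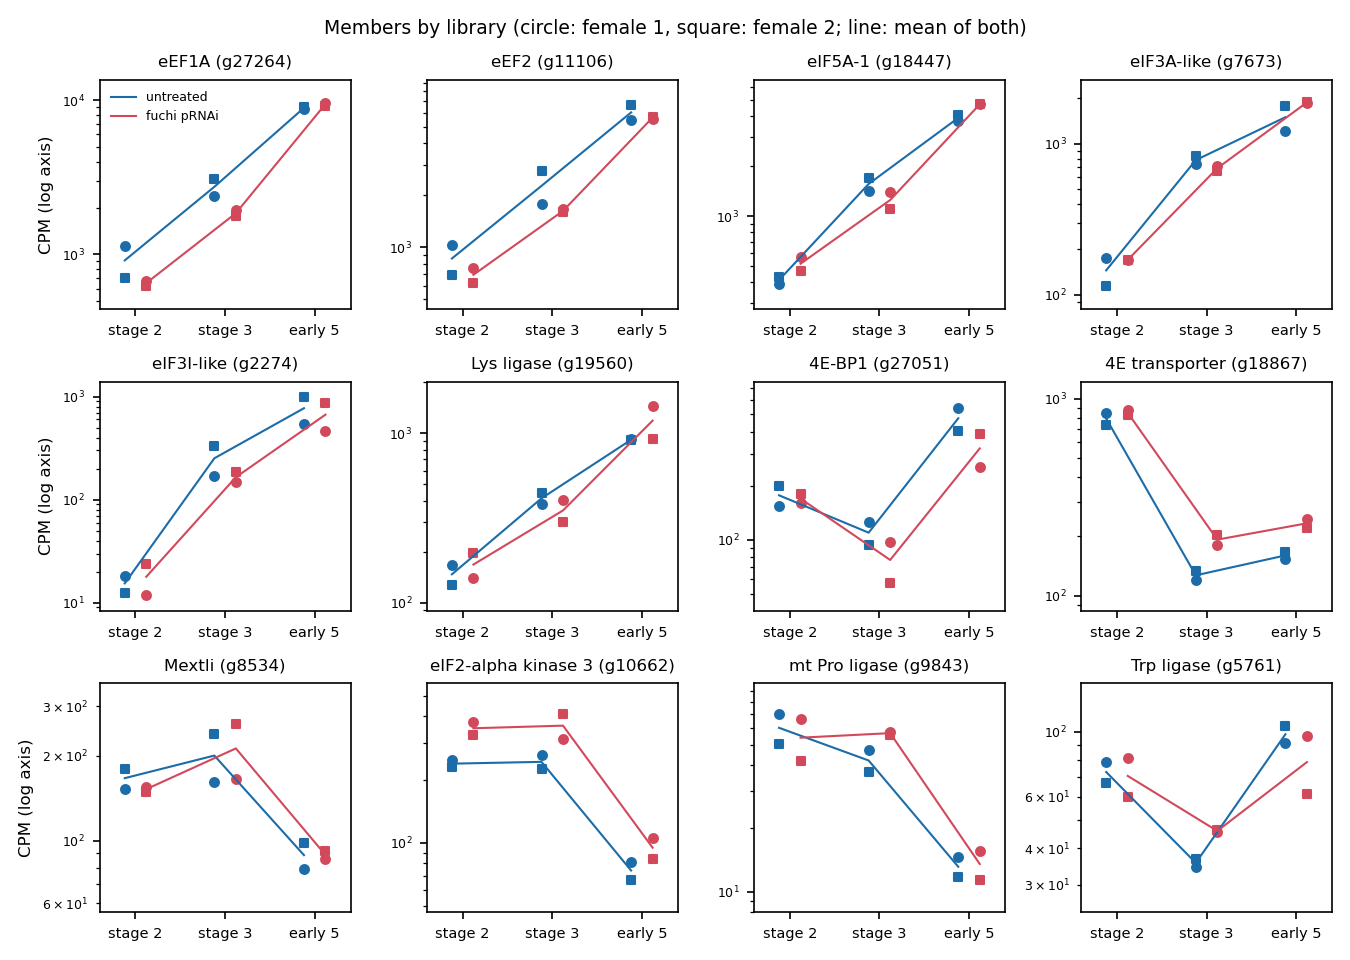
CPM (y axes, log scale) of 12 members by stage (x axes) in each library. Blue is untreated and red is *fuchi* pRNAi, circles are female 1, squares are female 2, and lines join the means. The eEF1A panel goes from 627 to 1127 CPM at stage 2 to 8815 to 9655 CPM at early stage 5, whereas the eIF4E transporter (4E transporter panel) goes from 736 to 873 CPM to 120 to 204 CPM by stage 3.

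Cytosolic tRNA ligases did not move as 1 group. The 31 models carry 23 NCBI entry labels and cover all 20 amino acids. At the first step 10 rose and 4 fell (median 0.42), and from stage 2 to early stage 5 10 were higher and 1 was lower (median 0.65, or 0.17 with library totals). At the first step 32.3% rose and 12.9% fell, against 17.2% and 15.7% of all models. Over the period 32.3% were higher and 3.23% lower, against 22.0% and 22.5% of all models. The share that fell was thus not above that of all models. The lysine ligase (g19560) had 166 and 128 CPM at stage 2, 381 and 444 CPM at stage 3 and then 921 and 907 CPM at early stage 5, and was 6.22-fold higher over the period (log2 change 2.64 ± 0.29, edgeR adjusted p = 7.04e-06). An alanine ligase (g20371) had 34.5 and 26.2 CPM, then 50.8 and 77.1 CPM, then 149 and 229 CPM (2.64 ± 0.30, edgeR adjusted p = 9.8e-06, and 2.00 on log2(RPKM + 1)). A leucine ligase (g5628) had 88.3 and 54.9 CPM, then 232 and 213 CPM, then 416 and 339 CPM (2.4 ± 0.34, edgeR adjusted p = 6.39e-05). These ligases were higher at each later stage in both females. The aspartate ligase (g23609) went from 91.9 and 98.1 CPM to 344 and 401 CPM (1.97, edgeR adjusted p = 5.74e-05).

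The 4 cytosolic ligase models called lower at the first step charge tyrosine, histidine, tryptophan and cysteine. The tyrosine ligase (g6918) was at 107 and 98.5 CPM at stage 2, 52.5 and 41.6 CPM at stage 3 and then 54.0 and 44.1 CPM at early stage 5. Its first step was a log2 change of -1.12 ± 0.25 (edgeR adjusted p = 0.0029), a call lost without stage 2 replicate 1 (edgeR adjusted p = 0.0179), stage 2 replicate 2 (edgeR adjusted p = 0.0104) or stage 3 replicate 2 (edgeR adjusted p = 0.0334). The histidine ligase (g5345) was at 129 and 162 CPM, then 77.0 and 46.0 CPM, then 114 and 123 CPM. Its fall at the first step (-1.24 ± 0.28, edgeR adjusted p = 0.00324) was lost without stage 2 replicate 2 (-1.07, edgeR adjusted p = 0.0259) or stage 3 replicate 2 (-0.92, edgeR adjusted p = 0.0401). The tryptophan ligase (g5761) was at 79.1 and 66.7 CPM, then 34.5 and 36.8 CPM, then 91.3 and 105 CPM, with stage 3 below both other stages. For stage 3 against stage 2, lack of overlap was a condition for naming the model. The fall (-1.03 ± 0.27, edgeR adjusted p = 0.00744) was lost without any 1 of its 4 libraries (edgeR adjusted p 0.0156 to 0.0483). The rise that followed (1.46 ± 0.27, edgeR adjusted p = 0.00154) was lost without stage 3 replicate 1 (1.43, edgeR adjusted p = 0.0139), stage 3 replicate 2 (1.51, edgeR adjusted p = 0.0124) or early stage 5 replicate 2 (1.37, edgeR adjusted p = 0.0122).

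For cysteine, model g20870 was at 7.06 and 6.26 CPM at stage 2, 1.5 and 2.1 CPM at stage 3 and then 5.32 and 3.58 CPM at early stage 5. Its fall at the first step (-1.88 ± 0.48, edgeR adjusted p = 0.00617) was lost without any 1 library (log2 change -2.13 to -1.73, edgeR adjusted p 0.0167 to 0.0436). Summed over the 5 models of the entry, the fall was -1.11 ± 0.28 (edgeR adjusted p = 0.00526), the later change was 1.07 (edgeR adjusted p = 0.0106), and the net change was -0.04. Valine has an entry of 2 models (g13640 and g13641), neither of which was called alone at the first step (edgeR adjusted p = 0.0471 and 0.013). Summed, it was at 15.9 and 22.1 CPM at stage 2, 6.16 and 8.55 CPM at stage 3 and then 7.15 and 9.43 CPM at early stage 5. The summed fall at the first step was -1.37 ± 0.36 (edgeR adjusted p = 0.00762), and the net change was -1.2 ± 0.36 (edgeR adjusted p = 0.0125, not called). The summed entries were not refitted without single libraries.

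Of 19 tested mitochondrial tRNA ligase models, 5 rose and 1 fell at the first step, and 4 were higher and 1 lower at early stage 5 than at stage 2 (median 0.67, or 0.18 with library totals). The share that was higher over the period, 21.1%, was near the 22.0% of all models, and at the first step it was 26.3% against 17.2%. The models that matched cover 13 of 20 amino acids. The mitochondrial arginine ligase (g19952) rose 3.02-fold from 27.8 and 28.6 CPM at stage 2 to 82.5 and 87.9 CPM at stage 3 (log2 change 1.59 ± 0.25, edgeR adjusted p = 0.000222) and was at 67.2 and 49.0 CPM at early stage 5. The mitochondrial proline ligase (g9843; Ptep_1.0 scaffold 1079, 42946 to 44616, plus strand) was at 70.0 and 50.1 CPM at stage 2, 46.9 and 37.1 CPM at stage 3 and then 14.6 and 11.7 CPM at early stage 5. It was 4.55-fold lower at the end than at the start (-2.19 ± 0.32, edgeR adjusted p = 7.56e-05), and early stage 5 lay below all earlier libraries of both treatments. For the untreated libraries this lack of overlap was a condition for naming the model. The mitochondrial tryptophan ligase (g19579) was at 29.6 and 26.6 CPM, then 9.44 and 9.84 CPM, then 23.4 and 17.2 CPM. Its fall at the first step (-1.54 ± 0.33, edgeR adjusted p = 0.00198) was lost without stage 2 replicate 1 (-1.47, edgeR adjusted p = 0.0129), stage 3 replicate 1 (-1.58, edgeR adjusted p = 0.0132) or stage 3 replicate 2 (-1.57, edgeR adjusted p = 0.0154). Both tryptophan ligases, cytosolic and mitochondrial, thus had their lowest untreated values at stage 3. Lower values at stage 3 than at stage 2 were a condition for naming both models.

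**Figure D4:**
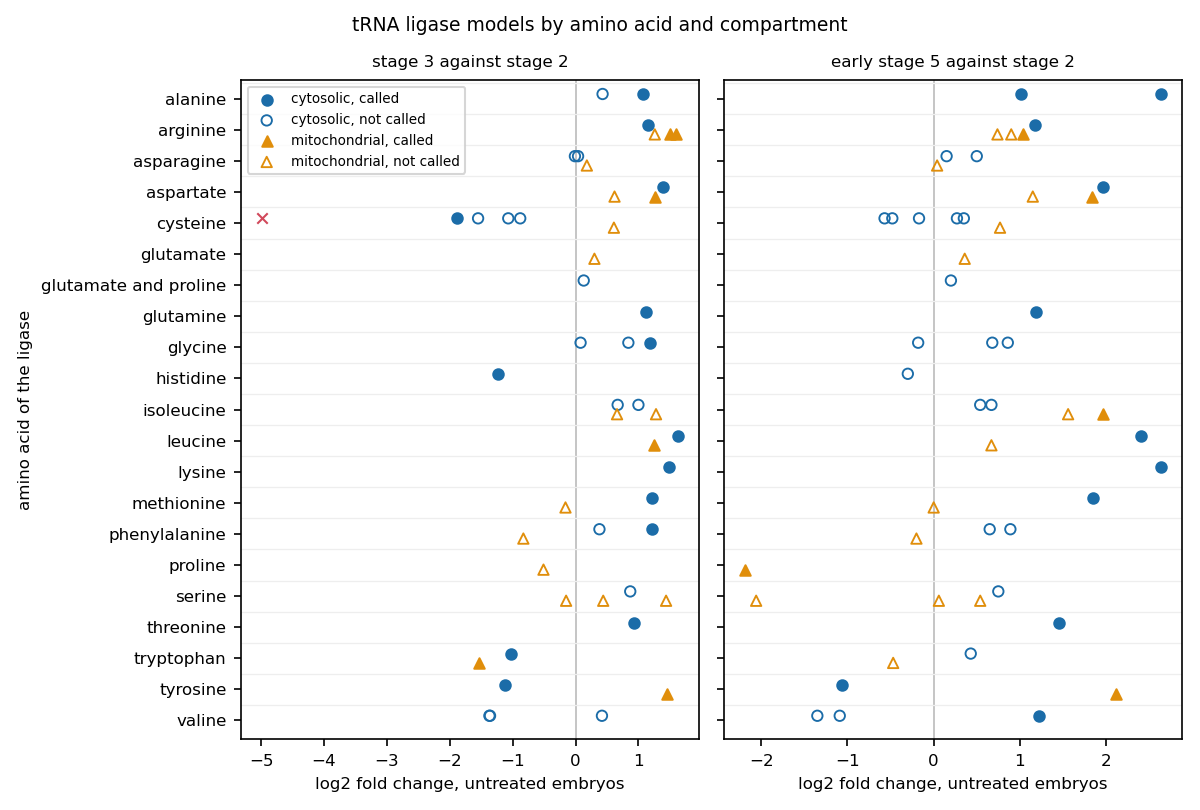
log2 fold change (x axes) of tRNA ligase models in untreated embryos, by amino acid (y axis) and compartment. Filled symbols passed the edgeR threshold, and the red cross is a cysteine model with 3 or fewer counts in 1 group. At the first step the called falls are those for cysteine, histidine, tryptophan and tyrosine. Over the whole period they are the proline ligase of mitochondria (-2.19) and the cytosolic tyrosine ligase (-1.06). The tyrosine call was lost without stage 2 replicate 1 (-1.01) or early stage 5 replicate 2 (-0.98). A mitochondrial serine model (g5080, -2.06) and the valine models g13640 (-1.35) and g13641 (-1.09) lie farther left than the tyrosine ligase but were not called.

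Mitochondrial elongation factors had a median net change of 0.01 over 4 models, but the models went in both directions (log2 changes of -1.39 to 1.73). The 1 called higher was elongation factor Ts (g3074). It was at 39.7 and 33.5 CPM at stage 2, 72.0 and 74.8 CPM at stage 3 and then 138.1 and 104.5 CPM at early stage 5 (log2 change 1.73, edgeR adjusted p = 6.77e-05). Elongation factor Tu-like (g3496), placed here as mitochondrial by its name, was at 133 and 90.3 CPM at stage 2, 148 and 264 CPM at stage 3 and then 164 and 215 CPM at early stage 5, and its groups overlapped in part. Elongation factor G (g25323), the mitochondrial counterpart of eEF2, was at 75.6 and 70.2 CPM, then 49.9 and 56.3 CPM, then 49.0 and 38.3 CPM (log2 change over the period -0.74 ± 0.25, not called, edgeR adjusted p = 0.0226). The serine synthetase-like protein Slimp (g5013), described in *Drosophila* mitochondria, went from 10.9 and 6.13 CPM to 29.0 and 32.6 CPM and then 31.5 and 32.3 CPM. Its first step was called (1.85 ± 0.31, edgeR adjusted p = 0.000374). Elongation factor-like GTPase 1 (g841), which acts in ribosome maturation together with the release of eIF6, was at 27.3 and 25.6 CPM, then 46.9 and 58.9 CPM, then 40 and 57.1 CPM, with a net log2 change of 0.87 ± 0.27 that was not called.

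Other genes of the translation apparatus were counted for comparison. Cytosolic ribosomal proteins rose more than the members. Of 83 tested, 79 were higher and 2 lower at early stage 5 than at stage 2 (median 4.39), and 77 rose at the first step (median 2.41). Of 70 mitochondrial ribosomal proteins, 43 were higher and 0 lower over the period (median 1.27), and 54 had an unadjusted edgeR p under 0.05 in either direction, against 63.4% of all models. At the first step 15 rose and 1 fell. Poly(A)-binding proteins had 3 of 6 higher over the period, and both synthetase-complex proteins (AIMP) were higher, where 22.0% of all models were. Of 8 initiation factors whose description lacks the word eukaryotic, 3 were higher over the period. At the first step 3 of these 8 fell and 1 rose, in untreated and likewise in *fuchi* pRNAi embryos. In untreated embryos the share that fell was 37.5%, against 15.7% of all models. Whether members and ribosomal proteins differ was not tested.

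The effect of *fuchi* pRNAi was compared at each stage from its own 4 libraries. No member was called at any stage with edgeR's quasi-likelihood test. At stage 2, 0 of 112 tested members passed, where 0% of all models were called. With the edgeR likelihood ratio test 0 members passed (0.0331% of all models), and with DESeq2 0 (0.125%). At an unadjusted edgeR p under 0.05 there were 2 members of 112, against 3.42% of all models. At stage 3, 0 of 114 members passed, where 0.270% of all models did, 0 with the likelihood ratio test (1.06% of all models) and 0 with DESeq2 (1.01%). There were 8 members at an unadjusted p under 0.05, against 9.30% of all models. At early stage 5, 0 of 115 members passed, where 3.12% of all models did, 0 with the likelihood ratio test (6.74%) and 0 with DESeq2 (4.73%), and 4 were at an unadjusted p under 0.05 against 14.0% of all models. The smallest adjusted p of a member was 0.983, 0.291 and 0.0959 at the 3 stages with edgeR. The median SE of a member's log2 fold change was 0.29, 0.31 and 0.26.

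With the female as a block, 1 member was called at stage 3, where 2.60% of all models were, and 0 at stage 2 (0.770% of all models) and early stage 5 (7.98%). This was a glycine ligase model (g10638), at 53.6 and 43.1 CPM in untreated stage 3 embryos and 26 and 15.9 CPM after *fuchi* pRNAi. Both *fuchi* pRNAi libraries were lower (log2 change -1.19 ± 0.36, edgeR adjusted p = 0.291 without the block, and -1.22, edgeR adjusted p = 0.00645, with it). At stage 2 the same model was at 31.2 and 22.6 CPM against 18.9 and 12 CPM, and at early stage 5 at 56.0 and 30.0 CPM against 43.3 and 18.1 CPM. It shares its NCBI entry with g19503 and g22227. The 3 models summed gave -0.36 ± 0.20, -0.35 ± 0.23 and -0.57 ± 0.25 at the 3 stages, none called by edgeR (adjusted p = 0.98, 0.705 and 0.35).

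The other members with the smallest p at each stage are described by their values. At stage 2, eIF2-alpha kinase 3 (g10662) was at 377 and 324 CPM in *fuchi* pRNAi against 247 and 229 CPM in untreated embryos (0.54 ± 0.20). The glycine ligase model g22227 was at 30.7 and 22.7 CPM against 49.8 and 34.3 CPM (-0.67 ± 0.29). Both had an edgeR adjusted p of 0.983. At stage 3, the eIF3L model g4623 was at 55.3 and 49.8 CPM against 75.5 and 118.5 CPM in untreated embryos (-0.87 ± 0.32, edgeR adjusted p = 0.406). The other eIF3L model under the same entry (g21226) was at 64.0 and 54.9 CPM against 56.8 and 105.6 CPM, and its treatments overlapped. The eEF1A model g1688 was at 1212 and 1126 CPM against 1542 and 2113 CPM (-0.63 ± 0.23, edgeR adjusted p = 0.411). The treatments did not overlap for g10662, g22227, g4623 and g1688. These were picked by their small p in the same data, so the lack of overlap adds no support. At early stage 5, the glycine ligase model g19503 was at 155 and 131 CPM against 247 and 228 CPM (-0.80 ± 0.22, edgeR adjusted p = 0.0959). The eEF1-gamma model (g16084), a subunit of the eEF1A exchange complex, was at 607 and 516 CPM against 839 and 843 CPM (-0.65 ± 0.22, edgeR adjusted p = 0.175). Mitochondrial elongation factor G (g25323) was at 28.3 and 31.1 CPM against 49.0 and 38.3 CPM (-0.63 ± 0.26, edgeR adjusted p = 0.312). The other model under its entry (g25555) was at 3.28 and 0.896 CPM against 1.83 and 2.45 CPM, and its treatments overlapped.

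The median log2 fold change of members after *fuchi* pRNAi was -0.08, -0.18 and -0.07 at the 3 stages in order, where the medians of all models were 0.01, 0.01 and -0.01. At stage 3 the medians by role were -0.42 for eIF3, -0.51 for cytosolic elongation factors, -0.37 for eIF1, eIF2 and relatives, and -0.03 for cytosolic ligases. They were -0.31 for eIF5 to eIF6, -0.29 for other matches of the rule, -0.14 for mitochondrial elongation factors and -0.13 for mitochondrial ligases. The eIF4 group was at -0.09, release factors at 0.01 and eIF2-alpha kinases at 0.24. With library totals at stage 3 the member median was -0.07 and that of all models 0.12. Cytosolic ribosomal proteins had a median of -0.65 at stage 3, with 56 of 81 at an unadjusted edgeR p under 0.05 and 0 called (smallest edgeR adjusted p = 0.103).

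**Figure D5:**
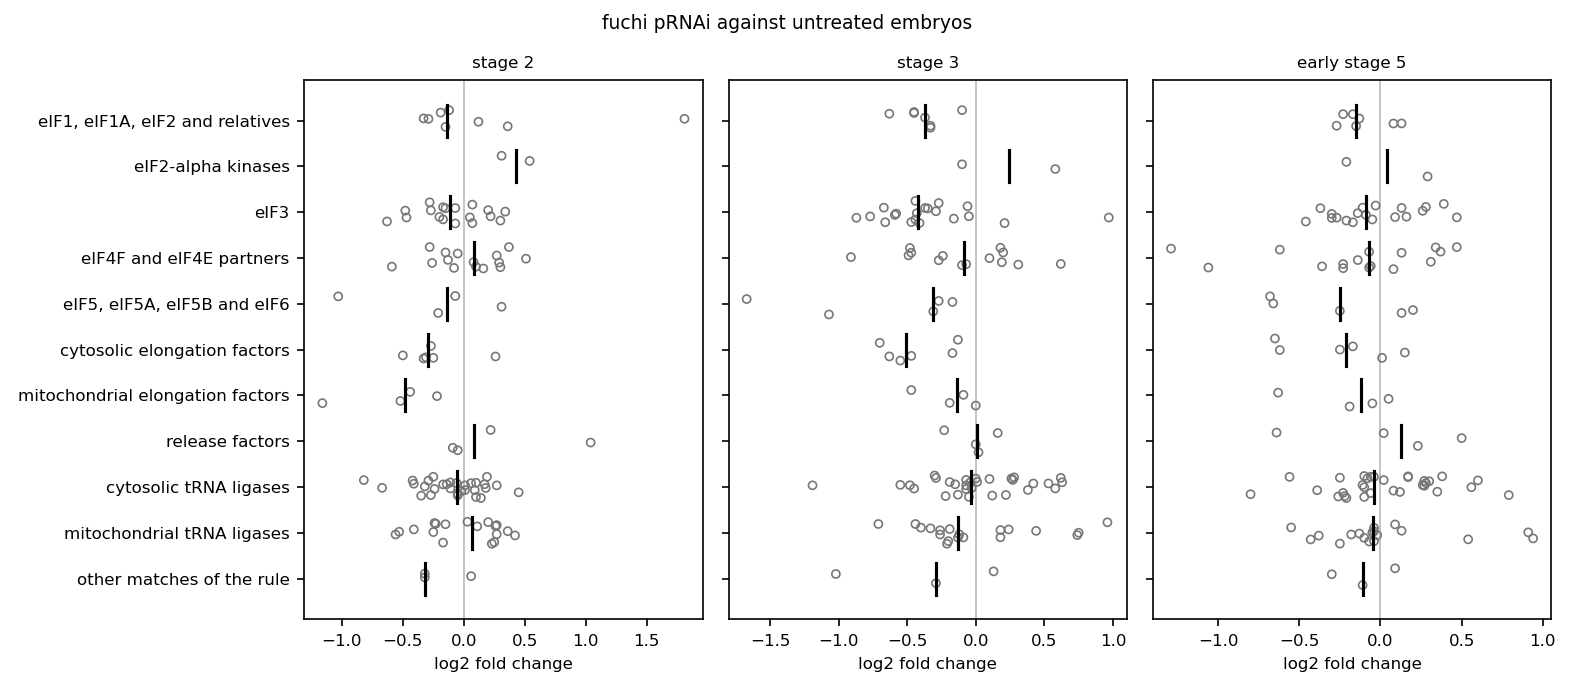
log2 fold change (x axes) of *fuchi* pRNAi against untreated embryos for each tested member, by stage (panels) and role (y axis). Black bars are role medians and all symbols are open because 0 members passed the edgeR threshold. At stage 3 the bars for eIF3 (-0.42) and cytosolic elongation factors (-0.51) lie left of 0.

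The change between stages was also tested within *fuchi* pRNAi embryos. From stage 2 to stage 3, 37 members rose and 4 fell (12.7% and 12.6% of all models, and 26 rose and 7 fell with limma on the deposited RPKM), and from stage 3 to early stage 5, 36 rose and 3 fell (8.09% and 11.2% of all models, and 23 and 5 with limma on RPKM). The medians were 0.71 and 0.73. The 41 calls of the first step became 16, 9, 14 and 25 without stage 2 replicate 1, stage 2 replicate 2, stage 3 replicate 1 and stage 3 replicate 2, and the 39 of the second became 22 without stage 3 replicate 2. All 37 rises of the first step were among the 49 of untreated embryos (100% and 75.5% of the lists). Of the falls at the first step, 3 were called in both, out of 6 in untreated and 4 in *fuchi* pRNAi embryos. How far calls overlapped over all models was not counted. At the second step 26 rises were called in both (72.2% of 36 and 92.9% of 28), as were all 3 falls, those of eIF2-alpha kinase 3, the mitochondrial proline ligase and Mextli.

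The difference between treatments in the change over time was tested directly. From stage 2 to stage 3, 0 of 118 members differed with edgeR's quasi-likelihood test (0% of all models), 0 with the likelihood ratio test (0.152%) and 0 with DESeq2 (0.199%), and 3 had an unadjusted p under 0.05 (4.21% of all models). From stage 3 to early stage 5, 0 of 118 differed (0.269% of all models), 0 with the likelihood ratio test (1.10%) and 0 with DESeq2 (1.15%), and 1 had an unadjusted p under 0.05 (7.79% of all models). The median differences were -0.12 and 0.27, against 0 and 0.05 for all models. The smallest p at the first step among members with more than a few counts was that of eIF1 (g1280). Its values from stage 2 to stage 3 were 285 and 301 CPM to 411 and 404 CPM in untreated, and 343 and 417 CPM to 367 and 259 CPM in *fuchi* pRNAi embryos, a difference of -0.76 ± 0.33 (edgeR adjusted p = 1). At the second step eEF1 epsilon-1 (g10578), a protein of the synthetase complex, went from 41.3 and 32.7 CPM to 86.5 and 57.1 CPM in untreated and from 25.4 and 19.8 CPM to 99.8 and 68.5 CPM in *fuchi* pRNAi embryos, a difference of 0.94 ± 0.43 (edgeR adjusted p = 0.633). The other named model of each difference had few counts. For the first step, a cysteine ligase model (g21481) had 0 to 5 counts per library at stages 2 and 3. It had 0 counts in both untreated stage 3 libraries, so that no difference is given. For the second step, an eIF2 subunit 2 model (g3016) was at 0 to 0.684 CPM at stage 3 and early stage 5.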

How the data were processed

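Poly(A) RNA of whole embryos was sequenced in single-end runs on a MiSeq. The authors counted reads per AUGUSTUS gene model (aug3.1) of the Ptep_1.0 assembly with HTSeq 0.6.1p1, and the deposited table holds these whole-number counts. The authors also deposited RPKM values of the same 12 libraries, which were divided by model length and library size. The aligner and the strand setting used for these whole-embryo libraries were not given in the sources used here. There were 0 sample columns without a matching label, and no column of the authors' own comparisons.

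Counts were tested with edgeR 4.0.16 (R 4.3.3) by the quasi-likelihood F test with TMM factors, on models that reached 1 CPM in 1 or more libraries of the fit, with Benjamini-Hochberg adjustment over all models and a threshold of 0.01. *fuchi* pRNAi was tested per stage on 4 libraries, and stage changes and their differences in 1 fit of 12 libraries, for 10 comparisons in all. The SE of a log2 fold change was taken as its size over the root of the F statistic. Library totals, DESeq2 1.42.0, limma 3.58.1 on log2(RPKM + 1) and log2(RPKM + 0.1), other filters, summed entries, the female as a block and leaving out each library were the alternatives. Scripts were tested on simulated data.

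Replicate numbers mark the same female, so they pair the libraries. Same-numbered untreated and *fuchi* pRNAi libraries deviated together (correlation of deviations 0.553, 0.43 and 0.385 at the 3 stages in order, over 14498 models). The members and lists were chosen with earlier results of these data known. Named members are the 3 smallest p of each pRNAi comparison, the called and non-overlapping members with the 6 smallest p in each direction of each untreated stage change, the 2 highest mean RPKM of each role, and the 2 smallest p of each difference. The eEF2, eEF1-beta, eIF6, eIF4E-like, alanine, leucine and valine ligase models, the eIF1A X-chromosomal-like model and the eIF3M model of the closing observations were named after their values were seen. So were the elongation factor Ts model and the entry partners g21226 and g25555. Intervals and bounds cover counting error only.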

Additional observations from a re-analysis of the deposited data

How the results depend on the processing

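The counts of called members were 0 under every alternative for *fuchi* pRNAi at stage 2 and early stage 5 and for both differences between treatments, also without any 1 library (0 to 0). At stage 3, the replicate block called 1 member. The pairing by female changed no other call of a named member and moved no other count of called members by over 1.5 times in the 10 comparisons. From stage 2 to stage 3 in untreated embryos the count of 55 became 35 with only the 4 libraries of the comparison and 35 with limma on log2(RPKM + 1) and no filter, and 27 to 39 without 1 library. From stage 3 to early stage 5 the 31 became 16 with library totals, 18 with 4 libraries, 17 and 16 with limma at pseudocounts of 1 and 0.1, 13 with no filter, and 12 to 16 without 1 library. From stage 2 to early stage 5 the 63 became 50 to 55 without 1 library. In *fuchi* pRNAi embryos the 41 of the first step became 21 with 4 libraries, 20 with limma and no filter and 9 to 25 without 1 library, and the 39 of the second became 23 with limma and no filter and 22 to 31 without 1 library. Fewer libraries enter the fits with 4 or without 1. The cause of the other shifts was not tested. For single named members, 1435 values kept their direction and side of the threshold, 207 lost the call, 1 gained it and 1 reversed. The reversed one is the difference at the first step of a cysteine ligase model with few counts (g21481). This model has a group at 0 counts and a fitted value that depends on the prior count. Summed over its entry, the difference was -0.04.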

Other observations

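The eIF3M variant model g9625, one of a pair of models with the same NCBI entry, was seen almost only in libraries of female 2. It had 0 counts in all 4 stage 2 libraries. In female 2 it had 4 and 8 counts at stage 3 and 3 and 5 counts at early stage 5 in untreated and *fuchi* pRNAi embryos, and in female 1 it had 0 and 1 at stage 3 and 0 and 0 at early stage 5. Its partner model g20886 went from 2 counts at untreated stage 2 to 40 at stage 3, a ratio of 26 (95% interval 6.75 to 222).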
